A study of Mus musculus with 9 samples.

Results

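LIF withdrawal in EGFP control cells was described from 2 of the 9 RNA sequencing libraries of the series, the EGFP no-LIF library against the EGFP LIF library, chosen by their labelled transfection and culture. The cells, mouse embryonic stem (ES) cells of the line RF8, carried a transgene for EGFP, a fluorescent protein that serves as control, for unaltered Nanog (WT), or for Nanog with the change called L122A in the labels. Each transfectant was grown in 3 cultures, and each of these combinations has 1 library. EGFP LIF cells were kept in the routine serum medium, which per the labels holds leukaemia inhibitory factor (LIF) at 1000 units per ml and puromycin. EGFP no-LIF cells were cultured without LIF. The WT and L122A libraries with and without LIF are set beside them. The libraries grown without LIF in 5 µM retinoic acid (RA) enter the scaling of the libraries and a single test. The labels do not give the time without LIF, the promoter of the transgenes, the use of feeder cells, or whether a transfectant is a clone or a pool. The name of the deposited column taken as EGFP LIF is in no label, and it was given to that culture because the other columns name the cultures without LIF and with RA.

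With 1 library a side, no test was made between the EGFP libraries, and the effect of the culture and the variation between cultures cannot be told apart. Values are given as CPM, reads of a gene relative to all gene reads of its library, after scaling of the libraries, and as the ratio of no-LIF over LIF with an exact 95% Poisson interval, which covers counting error only. Log2 ratios were computed with a prior count of 2. A gene was kept where the higher EGFP library had at least 5 CPM, and "higher" or "lower" without a number means 2-fold or more on the log2 ratio.

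LIF binds a receptor made of LIFR and gp130, the product of Il6st. Bound JAK kinases then phosphorylate STAT3, which enters the nucleus and acts on genes such as Socs3, Klf4 and Tfcp2l1. In serum culture this signal helps to hold ES cells in the naive state, which resembles the epiblast before implantation and depends on factors such as Esrrb, Klf2 and Tfcp2l1. Cells that leave the naive state pass through a formative state marked by Fgf5 and Otx2, from which primitive streak, mesoderm and other lineages arise.

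Total gene counts were 28692848 in the EGFP LIF library and 26922401 in the EGFP no-LIF library, within the series' range of 24166395 to 28714988. Ribosomal RNA genes took 15.9% and 15% of these counts, and mitochondrial genes took 8.43% and 5.87%. These shares overlap, since mitochondrial ribosomal RNA genes are in both. Without either class, 24016370 counts remained in the EGFP LIF library and 22817673 in the EGFP no-LIF library. The part of these shares in the results was not tested. The 6 ES cell markers summed to 1731 CPM with LIF and 788.5 CPM without. Feeder fibroblast markers summed to 28.35 and 26.85 CPM, endoderm markers to 3.745 and 4.042 CPM, and blood markers to 10.73 and 6.941 CPM. Of these markers, Ptprc (blood) and Afp and Ttr (endoderm) had at most 6 counts in either library. Other members had more: Foxa2 had 7 counts with LIF and 58 without, and Gata4 59 and 34. Of the blood markers 1 reached 5 CPM in the higher library. In bulk RNA, fewer cells of a type and less RNA per cell cannot be told apart.

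Without LIF, EGFP cells had far less RNA of the naive pluripotency genes, a moderate deficit of several general pluripotency genes, and less than 2-fold lower Pou5f1 and Nanog. Of 10064 genes kept, 749 (7.44%) were at least 2-fold higher without LIF and 637 (6.33%) were at least 2-fold lower, 13.8% in all. The median log2 ratio was 0.02, and the central 90% of genes lay between -1.17 and 1.25. At 4-fold or more, 177 genes were higher and 218 lower, and at 8-fold or more 52 were higher and 79 lower. The lower side was thus the larger one at 4-fold and beyond; at 2-fold the order turned with the settings, since total counts alone gave 650 genes higher and 770 lower, a minimum of 1 CPM 1327 and 1417, and log2(FPKM + 1) 407 and 448.

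All 1386 genes past 2-fold had an interval that excluded a ratio of 1, and in 1032 it lay wholly beyond 2-fold. Counting error alone says little at this depth, since 6411 of the 8678 genes under 2-fold also had an interval off 1. The share past 2-fold was 28.1% of 2208 genes with a mean under 10 CPM, 10.7% of 6274 genes between 10 and 100 CPM, and 6.07% of 1582 genes at 100 CPM or more. Near the threshold, 110 genes lay just under and 101 just over it on the higher side (log2 0.9 to 1.1), and 119 and 79 on the lower side.

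**Figure D1:**
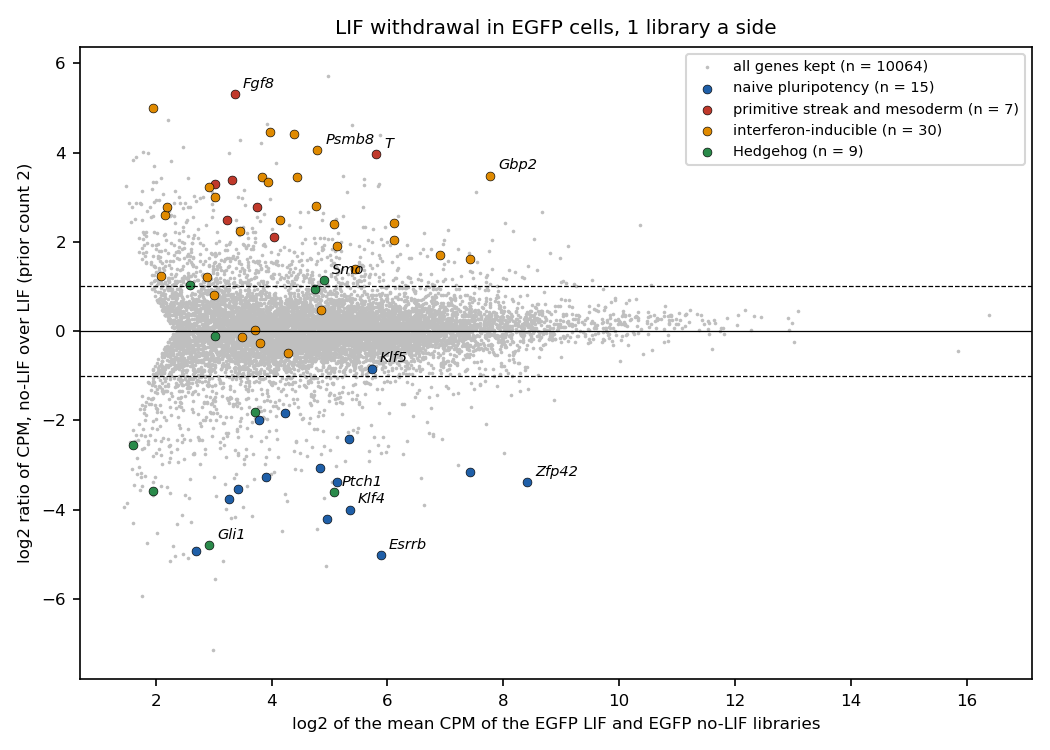
Log2 ratio of CPM (no-LIF over LIF, prior count 2) against log2 mean CPM for the 10064 genes kept in the EGFP pair, with the members of 4 lists in colour and dashed lines at 2-fold. All 15 naive pluripotency genes (blue) lie below 0, from Klf5 at -0.84 to Esrrb at -5.02, and the interferon-inducible genes (orange) reach 4.99.

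Genes of the LIF pathway itself were described first. Of 18 listed genes 14 were kept, with 2 higher, 4 lower and a median log2 ratio of 0.05, close to that of all genes. Lifr, the specific receptor chain (chr15:7104359-7141218, mm9), had 36.2 CPM with LIF and 5.53 CPM without, 6.54-fold lower (95% interval 5.50 to 7.84). It had 35.6 and 13.8 CPM in the WT libraries with and without LIF and 39.3 and 20.9 CPM in the L122A libraries. All 3 LIF libraries thus held similar Lifr levels, and each no-LIF library was below them, EGFP most. The shared chain Il6st was at 55.7 and 47.1 CPM, a log2 ratio of -0.24.

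Stat3, the transcription factor of the pathway, had 46.4 CPM with LIF and 17.7 CPM without in EGFP cells. The WT pair had 37.9 and 10.4 CPM and the L122A pair 47.5 and 13.0 CPM. Stat3 was lower without LIF in each transfectant, and the EGFP level was 2.62-fold lower (2.35 to 2.91). Gab1, an adaptor that couples receptors to other kinases, had 409.7 CPM with LIF and 152.4 CPM without, against 190.6 and 207.6 CPM in WT and 263.3 and 206.8 CPM in L122A. Tyk2, a JAK family kinase, was also lower (log2 ratio -1.17), whereas Jak2, another of these kinases, was 2.23-fold higher (1.88 to 2.65). Jak1 was near equal, at 38.3 and 42.8 CPM. Lif itself was 2.92-fold higher (2.36 to 3.63), at 4.08 and 11.9 CPM.

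Targets of LIF and STAT3 were lower on balance. Of 22 listed genes 16 were kept: 7 were lower, 2 were higher, and the median log2 ratio was -0.89 against 0.02 over all genes. Over all genes kept 6.33% were lower. Of the 7 lower targets 4 were under 5 CPM without LIF and reached the minimum only with it. The pairs of WT and L122A had 7 of 16 and 9 of 14 kept members lower. Socs3, the feedback inhibitor of JAK signalling and the most direct readout of STAT3 (chr11:117827392-117831361, mm9), had 17.96 CPM with LIF and 4.081 CPM without in EGFP cells. It had 19.63 and 0.6527 CPM in WT, and 25.17 and 0.2024 CPM in L122A. The 3 LIF libraries were close to each other, and among the no-LIF libraries EGFP was highest. The EGFP ratio was 4.40-fold lower (3.57 to 5.47), a log2 ratio of -2.12, against -4.76 in WT and -6.51 in L122A.

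Klf4, a naive pluripotency factor directly activated by STAT3 (chr4:55540014-55545347, mm9), had 76.67 CPM with LIF and 4.729 CPM without in EGFP cells. In WT it had 87.18 and 7.751 CPM and in L122A 100 and 15.74 CPM. Klf4 was lower without LIF in each transfectant, and the EGFP level was 16.2-fold lower (13.5 to 19.6). Bcl3, an atypical IκB protein that is a known LIF target, went from 20.43 to 2.517 CPM in EGFP, from 13.78 to 1.061 CPM in WT and from 20.03 to 1.569 CPM in L122A. The ratios were of like size in the 3 transfectants, at -2.98, -3.61 and -3.61 on the log2 scale. Tfcp2l1, a factor that mediates much of LIF's effect on self-renewal, was 8.42-fold lower in EGFP (7.15 to 9.98), and Gbx2, a homeobox gene downstream of STAT3, was 23.3-fold lower (16.9 to 33.0). Icam1, a cell adhesion molecule, was 2.23-fold lower (1.90 to 2.63).

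Other listed targets did not move together. Myc had 45.2 and 53.8 CPM, Mcl1, an anti-apoptotic protein, 398.9 and 393.3 CPM, and Pim1, a kinase, 12.9 and 12.3 CPM. Sgk1, a serum-induced kinase, had 160 and 83.9 CPM, just under the threshold at -0.93, and Klf5, Socs2 and Pim3 were at -0.84, -0.63 and -0.60. Tnfrsf12a, a receptor of the TNF family, was 4.28-fold higher (3.78 to 4.85), and Ier3 was 2.21-fold higher (1.81 to 2.70). Junb, an immediate early gene that did not reach 5 CPM in the EGFP pair, had 65 counts with LIF and 106 without.

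For 3 genes that were lower without LIF, the 250 bases before the annotated start are shown because they hold letters of a STAT site, read 5′ to 3′ on the gene's strand, from RefSeq (GRCm38.p6). Socs3 lies at chr11:117969367-117969616, minus strand, Icam1 at chr9:21015690-21015939, plus strand, and Esrrb at chr12:86360867-86361116, plus strand. Capitals mark TTCNNNGAA, the core of a STAT recognition sequence, which reads the same on both strands.
Socs3: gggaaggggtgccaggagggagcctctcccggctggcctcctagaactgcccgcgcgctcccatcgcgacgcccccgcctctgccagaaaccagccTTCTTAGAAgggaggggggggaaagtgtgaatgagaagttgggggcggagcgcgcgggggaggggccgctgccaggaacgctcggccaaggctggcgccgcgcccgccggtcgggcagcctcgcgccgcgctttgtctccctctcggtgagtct
Icam1: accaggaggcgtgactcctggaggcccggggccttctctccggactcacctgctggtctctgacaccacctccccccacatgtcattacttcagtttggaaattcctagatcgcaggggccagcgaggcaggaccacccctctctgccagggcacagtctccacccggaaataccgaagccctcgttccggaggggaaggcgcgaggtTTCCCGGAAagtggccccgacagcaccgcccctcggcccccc
Esrrb: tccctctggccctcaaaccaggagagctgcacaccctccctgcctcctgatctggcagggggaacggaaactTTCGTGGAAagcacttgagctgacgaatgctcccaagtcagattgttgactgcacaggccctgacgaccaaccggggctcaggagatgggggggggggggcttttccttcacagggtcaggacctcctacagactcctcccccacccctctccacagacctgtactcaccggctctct
The sequence shown for Esrrb is from 1 of its 2 promoter entries. The match starts 154 bases before the start in Socs3, 42 in Icam1 and 178 in Esrrb. In windows of 300 bases (250 before the start and 50 after), 8.3% of 32851 RefSeq promoters held these letters. Counted by gene, with a match in any of its promoters, 8.11% of 7746 promoter-matched genes kept held them. So did 9.16% of 557 promoter-matched genes that were higher and 8.17% of 465 that were lower. Among the LIF and STAT3 targets, 4 of 19 genes with a promoter entry held them. A match describes letters only, and no match says only that they are not in this window.

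**Figure D2:**
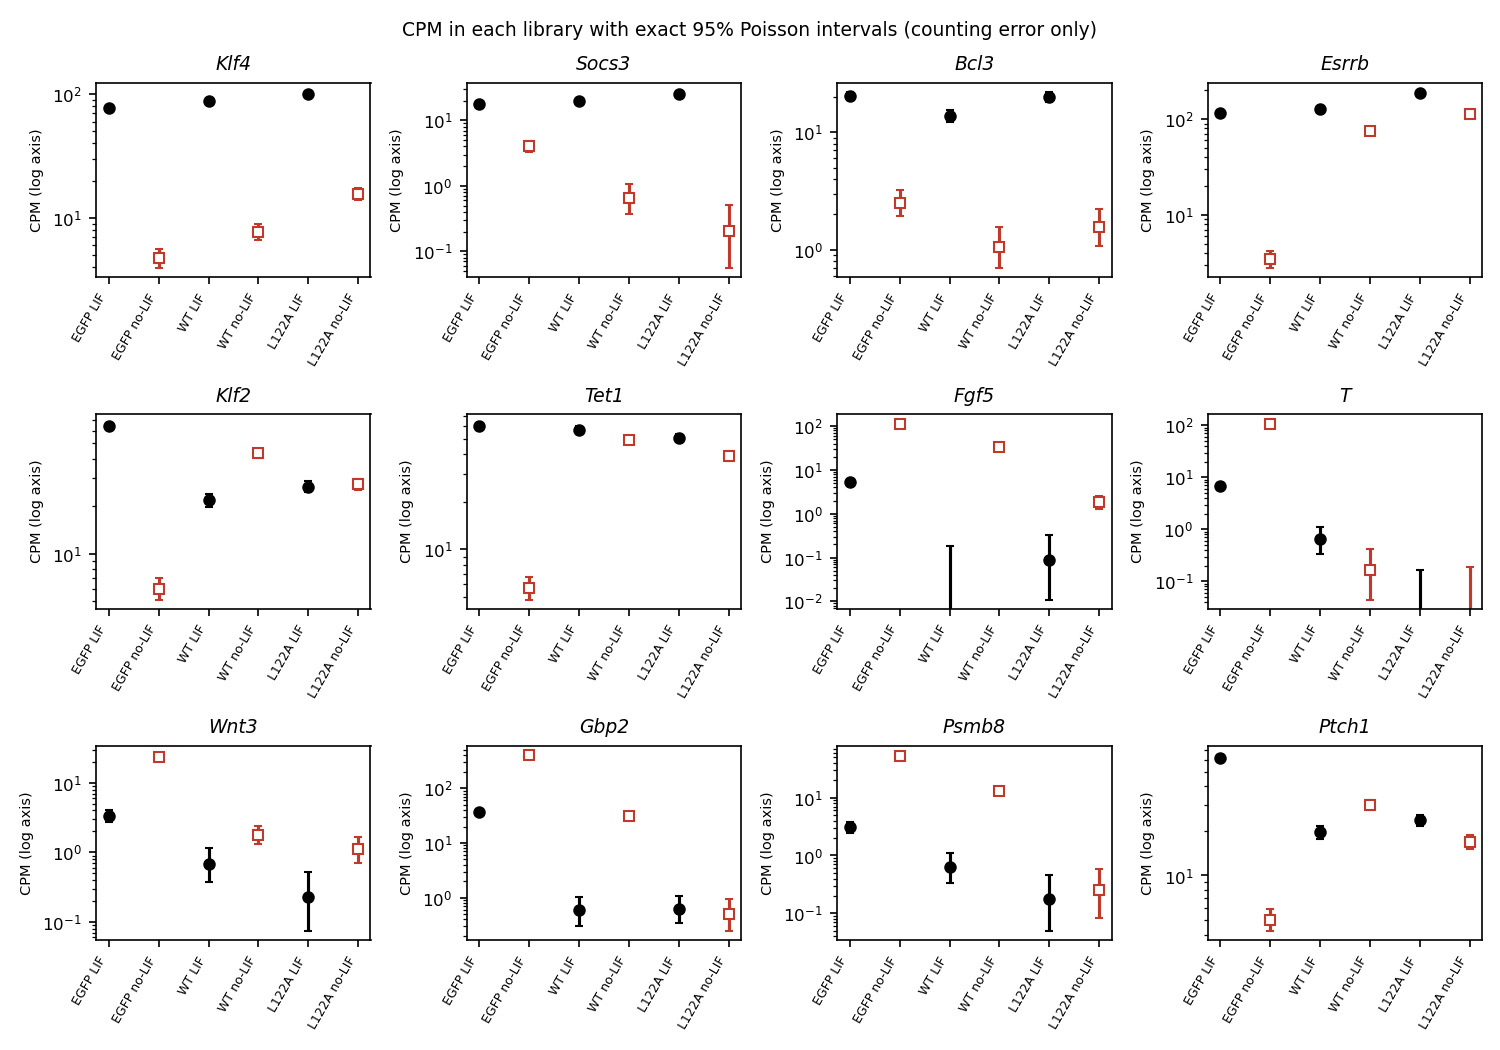
CPM of 12 genes in the LIF (filled circles) and no-LIF (open squares) libraries of EGFP, WT and L122A cells, on log axes that differ between panels, with exact 95% Poisson intervals for counting error and 1 library per point; a library with no count shows only the upper part of its interval. Klf4, Socs3 and Bcl3 are lower without LIF in all 3 transfectants, whereas Esrrb, Klf2, Tet1 and Ptch1 are lowest in EGFP no-LIF and Fgf5, T, Wnt3, Gbp2 and Psmb8 highest there.

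The naive pluripotency genes had the lowest median of the lists. All 15 were kept, 14 of them were lower, and the median log2 ratio was -3.39. The exception was Klf5, a Krüppel-like factor, at 67.9 and 37.9 CPM (-0.84). In WT 6 of 15 and in L122A 5 of 15 were lower, with medians of -0.84 and -0.72. The minimum of 5 CPM removed none of these genes, so the count covers the whole list.

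Esrrb, an orphan nuclear receptor of the naive network (chr12:87702066-87862575, mm9), had 114.6 CPM with LIF and 3.47 CPM without in EGFP cells. It had 126.4 and 75.02 CPM in WT, and 186.7 and 113.6 CPM in L122A. Among the LIF and no-LIF libraries EGFP no-LIF stood alone, since every other one had at least 75.02 CPM. The EGFP RA library had 0.1555 CPM. The EGFP ratio was 33.0-fold lower (26.8 to 41.1). Prdm14, a repressor of FGF receptor and DNA methyltransferase genes, had 12.61 and 0.3432 CPM (377 and 9 counts), 36.7-fold lower (19.1 to 81.0). Its WT and L122A no-LIF libraries were at 8.73 and 8.805 CPM.

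Klf2, a Krüppel-like factor of the naive state (chr8:74842931-74845555, mm9), had 64.03 CPM with LIF and 6.026 CPM without in EGFP cells. Its levels were 21.84 and 43.24 CPM in WT and 26.62 and 27.53 CPM in L122A. EGFP cells were therefore the highest of the 3 transfectants with LIF and the lowest without, and only they showed less Klf2 without LIF. Zfp42 (Rex1), a common reporter of the naive state, went from 619.7 to 59.2 CPM, 10.5-fold lower (9.935 to 11.03), and had 599.3 CPM in WT and 1119 CPM in L122A without LIF. Nr0b1 (Dax1), a nuclear receptor cofactor, had 58.9 and 3.13 CPM in EGFP, against 68.5 and 62.6 CPM in WT and 102.2 and 196.1 CPM in L122A.

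Among the rest of the list, Tcl1, an activator of AKT, was 14.3-fold lower (10.1 to 21.0), Nr5a2, a nuclear receptor that can act on Pou5f1, 12.1-fold (8.87 to 16.9), and the surface protein gene Pecam1 9.90-fold (7.77 to 12.8). Tdh, threonine dehydrogenase of ES cell metabolism, had 307.7 and 34.5 CPM. Fgf4, the autocrine ligand that promotes exit from the naive state, was 5.38-fold lower (4.79 to 6.06). Tbx3, a T-box factor, was 4.03-fold lower (3.36 to 4.85), close to the log2 ratios of WT (-2.14) and L122A (-2.33). Dppa3 (Stella) had 29.6 and 8.20 CPM in EGFP, but 7.38 and 52.8 CPM in WT and 2.12 and 9.72 CPM in L122A.

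**Figure D3:**
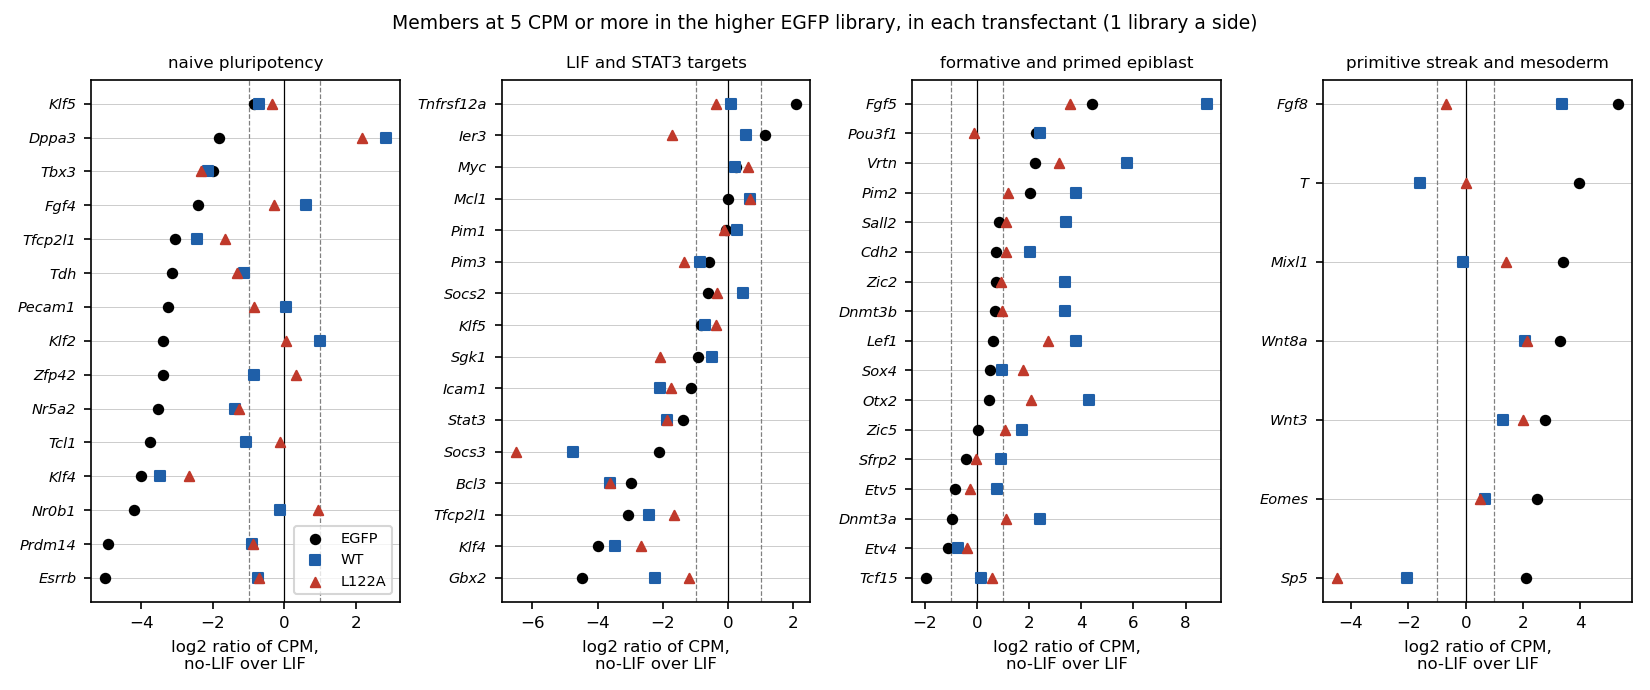
Log2 ratios of CPM (no-LIF over LIF) in EGFP (black circles), WT (blue squares) and L122A (red triangles) for the members of 4 lists that reached 5 CPM in the EGFP pair, with dashed lines at 2-fold. EGFP has the lowest ratio of the 3 for 14 of the 15 naive genes, the exception being Tbx3.

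General pluripotency genes differed less than naive ones. All 17 were kept, 9 were lower, none was higher, and the median was -1.01. In both WT and L122A none of the 17 was lower and 1 was higher. Sox2, a partner of Oct4, had 85.87 CPM with LIF and 19.83 CPM without in EGFP cells (4.33-fold lower, 3.94 to 4.77). It had 58.59 and 73.96 CPM in WT and 66.32 and 49.59 CPM in L122A, so EGFP no-LIF was the lowest of the 6 libraries. Dppa2 and Dppa4, chromatin proteins expressed as a pair, were 3.72-fold and 2.69-fold lower, and Dppa5a 2.90-fold lower (2.82 to 2.98). Foxd3, a forkhead repressor, was 2.88-fold lower, Utf1, a chromatin factor, 2.63-fold, Zscan10 2.27-fold, Sall4, a zinc finger factor, 2.18-fold and Rif1 2.01-fold.

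Pou5f1 (Oct4) and Nanog stayed under the threshold. Pou5f1 had 282.7 CPM with LIF and 194.6 CPM without in EGFP (log2 ratio -0.54), 444 and 237.1 CPM in WT, and 452.8 and 445.6 CPM in L122A. Nanog had 384.2 and 290.3 CPM in EGFP (-0.40), 222.5 and 168.1 CPM in WT, and 239.1 and 129.9 CPM in L122A. The EGFP libraries held more reads on Nanog than either transfectant labelled with a Nanog construct, in both cultures; how the transgenes were counted is not given in the sources used here. Lin28a, an RNA-binding protein, and Tdgf1 (Cripto), a Nodal co-receptor, were slightly above their LIF level, at 0.32 and 0.26.

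Genes of DNA methylation and its removal followed. Of 9 kept, 4 were lower and none higher, with a median of -0.97, against medians of 0.21 in WT and 0.19 in L122A. Tet1, an enzyme that oxidises methylcytosine (chr10:62301844-62328011, mm9), had 59.92 CPM with LIF and 5.682 CPM without in EGFP cells. It had 57.12 and 48.87 CPM in WT and 50.44 and 39.17 CPM in L122A, so 1 library of 6 was low. Tet2, a second such enzyme, had 172.9 and 17.7 CPM, 9.77-fold lower (8.88 to 10.8). Each WT and L122A library of the LIF and no-LIF cultures had at least 149.8 CPM of Tet2. Zfp57, which protects imprinted regions, was 5.49-fold lower (5.05 to 5.97), and Dnmt3l, a cofactor of the de novo methyltransferases, 4.65-fold (4.18 to 5.20).

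The de novo methyltransferases themselves went separate ways. Dnmt3a had 109.4 CPM with LIF and 56.0 CPM without in EGFP (-0.97), but 68.3 and 361.4 CPM in WT and 51.4 and 111 CPM in L122A. Dnmt3b had 137 and 222.2 CPM in EGFP (0.70), 41.0 and 425.5 CPM in WT, and 50.03 and 98.12 CPM in L122A. The EGFP LIF library thus held more of both genes than the other LIF libraries did. Dnmt1, the maintenance enzyme, was at -0.69.

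Formative and primed epiblast genes did not shift together in EGFP cells. Of 18 listed genes 17 were kept, 4 were higher, 2 were lower and the median was 0.62. In WT 12 of 17 were higher with a median of 2.43, and in L122A 9 of 15 were higher. Fgf5, the ligand that defines the early post-implantation epiblast (chr5:98683202-98706049, mm9), had 5.216 CPM with LIF and 111.9 CPM without in EGFP cells. It had no count and 33.66 CPM in WT, and 0.09023 and 1.872 CPM in L122A. It was higher without LIF in all 3 transfectants and highest in EGFP no-LIF, 21.5-fold above EGFP LIF (18.3 to 25.4). Pou3f1 (Oct6), a POU factor of the epiblast, was 4.91-fold higher (4.13 to 5.85), Vrtn 4.68-fold (3.87 to 5.70) and the kinase gene Pim2 4.13-fold (3.90 to 4.38).

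Otx2, the homeobox factor that drives the formative state, had 22.97 CPM with LIF and 31.39 CPM without in EGFP cells, 1.37-fold higher (1.23 to 1.51). It had 7.035 and 138.6 CPM in WT and 2.301 and 9.868 CPM in L122A. The EGFP LIF library held the most Otx2 of the LIF libraries, and its ratio was the smallest. Lef1, an effector of Wnt signalling, behaved alike, with 12.5 and 19.3 CPM in EGFP, 8.27 and 116.1 CPM in WT and 6.81 and 45.8 CPM in L122A. Tcf15, a bHLH factor of primed cells, was 3.88-fold lower in EGFP (3.17 to 4.77), and Etv4, an ETS factor downstream of FGF, 2.17-fold lower (1.85 to 2.55).

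Primitive streak and mesoderm genes were higher in EGFP no-LIF. Of 18 listed genes 7 reached 5 CPM, all 7 of them higher, with a median of 3.30. In 5 of the 7, all but T and Sp5, the LIF library was under 5 CPM, so these reached the minimum only through the library where they were high, and the count supports nothing beyond the values. T (Brachyury), the defining factor of the streak (chr17:8627287-8635361, mm9), had 6.721 CPM with LIF and 105.4 CPM without in EGFP cells. It had 0.6396 and 0.1632 CPM in WT and no count in either L122A library. T RNA was thus largely found in EGFP cells, and its level without LIF was 15.7-fold above that with LIF (13.6 to 18.2).

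Fgf8, a ligand needed for cells to leave the streak, had 13 counts with LIF and 527 without in EGFP, 46.2-fold higher (26.8 to 87.4). The other LIF and no-LIF libraries had at most 17 counts. Wnt3, the ligand that starts streak formation, had 3.344 and 23.38 CPM in EGFP, 0.6888 and 1.795 CPM in WT and 0.2256 and 1.113 CPM in L122A. Its direction was the same in the 3 transfectants and its level highest in EGFP. Mixl1, a homeobox gene of mesendoderm, was 10.9-fold higher (8.15 to 14.9), Wnt8a 10.3-fold (7.50 to 14.5), Eomes, a T-box factor of streak and trophoblast, 5.70-fold (4.50 to 7.30) and Sp5, a Wnt target, 4.36-fold (3.70 to 5.16). Members under 5 CPM in the EGFP pair went both ways. Evx1, a streak homeobox gene, had 3 counts with LIF and 44 without. Mesp2 had 82 counts with LIF and 38 without, and Cdx1 had 12 and 13.

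Genes of other lineages gave a mixed picture. Of the endoderm list 9 of 23 genes were kept, with 1 higher and 3 lower. All 3 lower genes were under 5 CPM without LIF and reached the minimum only with it. Sparc, a matrix protein, was 2.21-fold higher, while Lama1, a laminin chain of basement membrane, was 18.5-fold lower (13.2 to 27.0), Cubn, an endocytic receptor, 5.53-fold and Hhex, a homeobox gene, 2.18-fold. Lama1 went the same way in WT (-3.15) and L122A (-3.11). Foxa2, a factor of definitive endoderm and node, had 7 counts with LIF and 58 without, and Cer1, a secreted antagonist, 1 and 28, both under 5 CPM. Among neural genes 3 of 12 were kept: Nes, an intermediate filament, was 3.62-fold higher, Pax6 4.24-fold lower and Tubb3 3.28-fold lower.

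Of 9 germ cell genes kept, 5 were lower: Prdm14 and Dppa3 as above, Tfap2c (7.15-fold, 5.78 to 8.94), Kit (5.65-fold, 4.80 to 6.68) and Prdm1 (4.61-fold, 3.59 to 5.99). Of the 5, 3 were under 5 CPM without LIF and reached the minimum only with it. Tfap2c is an AP-2 factor and Kit the receptor of stem cell factor, and both were also lower in WT and L122A. Zscan4c and Zscan4f, members of a multigene family of the early embryo whose reads may be shared between copies, were 3.14-fold and 4.84-fold lower.

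Epithelial genes were higher. Of 16 kept members of the epithelial and EMT list 11 were higher, 3 of them under 5 CPM with LIF, and 1 was lower, with a median of 1.49; WT had 9 of 14 higher and 2 lower, and L122A 4 of 12 higher and 1 lower. Cdh1 (E-cadherin) had 328 CPM with LIF and 713.5 CPM without in EGFP cells, 169.1 and 357 CPM in WT and 107.7 and 121.3 CPM in L122A. EGFP no-LIF was the highest of the 6 libraries, 2.18-fold above EGFP LIF (2.12 to 2.23). The tight junction genes Cldn7 (5.04-fold), Cldn3 (3.55-fold), Cldn4 (3.35-fold), Cldn6 (3.30-fold) and Ocln (2.39-fold) were higher too. The keratin gene Krt18 had 100.2 and 474.3 CPM in EGFP, against 8.07 and 33.1 CPM in WT and 7.04 and 8.70 CPM in L122A. Krt8, its partner, was 4.79-fold higher and Krt19 4.58-fold.

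Mesenchymal members of that list went both ways. Vim (vimentin) had 192.6 and 445.8 CPM in EGFP, 2.31-fold higher (2.24 to 2.39), but 76.3 and 23.5 CPM in WT and 221.6 and 100.6 CPM in L122A. Twist1, an EMT factor, was 4.44-fold higher from 36 counts (3.06 to 6.59). Zeb1, a repressor of Cdh1, was 2.91-fold lower (2.19 to 3.92), and Zeb2 was at 0.32. Acta2, smooth muscle actin, had 120.1 and 244.4 CPM in EGFP and at most 2.41 CPM in the 4 WT and L122A libraries, so this gene already separated the EGFP cells with LIF. Its ratio, at 1.02, became 0.93 with scaling by total counts. In the fibroblast list Twist1, Vim, Acta2 and S100a4 were the 4 of 7 kept genes that were higher, Twist1 and S100a4 having reached the minimum only without LIF, while the collagens Col1a1 and Col1a2 were at -0.43 and -0.05. Of 6 trophectoderm genes kept 4 were higher (Krt7, Krt8, Krt18 and Eomes) and Tfap2c was lower. All of these but Krt7 are also in other lists described here. Krt7 and Eomes were under 5 CPM with LIF, and Tfap2c without it.

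**Figure D4:**
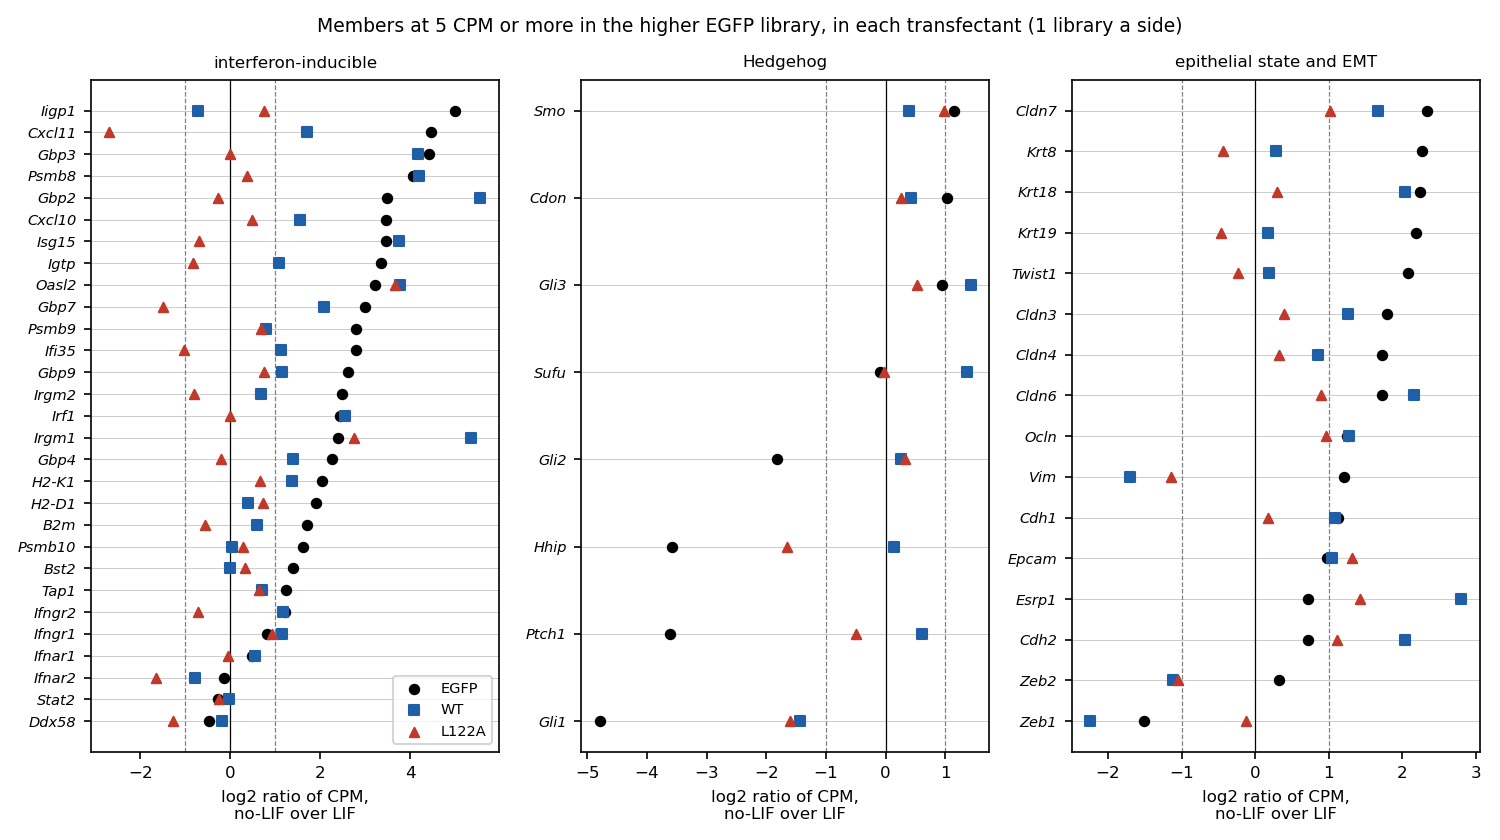
Log2 ratios of CPM (no-LIF over LIF) in EGFP (black circles), WT (blue squares) and L122A (red triangles) for the interferon-inducible, Hedgehog and epithelial genes that reached 5 CPM in the EGFP pair, except 2 that are left out, with dashed lines at 2-fold. In EGFP 24 interferon-inducible genes lie beyond 2-fold on the higher side, and Gli1, Ptch1, Hhip and Gli2 lie beyond it on the lower side.

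Signalling genes were taken by pathway. Of 16 kept FGF and ERK genes 4 were higher and 4 lower: the ligands Fgf5 and Fgf8 were higher and Fgf4 lower, and the feedback phosphatases Dusp6 (2.74-fold, 2.36 to 3.20) and Dusp4 (2.27-fold, 2.02 to 2.55) were higher while the feedback inhibitor Spry4 was 4.83-fold lower (4.31 to 5.42). Fgfr2, an FGF receptor, had 10.6 and 4.54 CPM in EGFP but 1.82 and 7.02 CPM in WT and 2.62 and 5.72 CPM in L122A. In the Nodal list 2 of 15 were higher, among them Nodal itself (28.5 and 60.9 CPM), which was just under 2-fold with scaling by total counts. The Nodal inhibitors Lefty1 and Lefty2 were at 0.77 and 0.62 in EGFP.

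In the BMP list 2 of 11 were higher, the ligand Bmp2 (7.78-fold, 5.41 to 11.5) and the target Msx2 (2.68-fold, 2.23 to 3.22); Id1, Id2 and Id3, the common targets in ES cells, lay between -0.33 and 0.26. In the Wnt list Sp5 was higher, Notum, a secreted Wnt inhibitor, was 10.5-fold lower (6.32 to 18.8), and Axin2, a general target, was at 0.79. Of 8 kept retinoic acid response genes 6 were higher without added retinoic acid, against 7.44% of all genes kept. Of the 6, Dhrs3 and Cyp26a1 reached the minimum only in the no-LIF library. In WT none of 2 kept members was higher, and in L122A none of 3 was higher and 2 were lower. The other 8 listed genes were not kept, among them Stra8, with 72 counts with LIF and 5 without in EGFP. The 6 higher genes included Dhrs3 (8.25-fold, 5.46 to 13.0), Cyp26a1 (3.60-fold), Crabp2 (2.63-fold), Rdh10 (2.56-fold) and Meis2 (2.34-fold). Dhrs3, Cyp26a1, Crabp2 and Rdh10 encode proteins that make, bind, reduce or degrade retinoids.

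The lists of interferon-inducible and Hedgehog genes were written after these values had been seen, so their counts describe and support nothing. Interferons act through JAK kinases and STAT proteins on genes of antigen presentation and antiviral defence. Of 43 listed genes 30 were kept, 24 higher and none lower, with a median of 2.42; 14 of the 24 were under 5 CPM with LIF and reached the minimum only without it. WT had 9 of 22 higher and 1 lower, and L122A none of 16 higher and 4 lower. Gbp2, an interferon-induced GTPase, had 36.11 CPM with LIF and 402.7 CPM without in EGFP cells. It had 0.5904 and 31.21 CPM in WT and 0.6316 and 0.506 CPM in L122A. Guanylate-binding protein genes are near-identical neighbours, so reads may be split between them.

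The immunoproteasome subunit Psmb8 (chr17:34335312-34338399, mm9) had 3.043 CPM with LIF and 51.94 CPM without in EGFP, 0.6396 and 13.01 CPM in WT and 0.1805 and 0.253 CPM in L122A. It was higher without LIF in EGFP and WT, by log2 4.06 and 4.20, and at 0.253 CPM or less in L122A. Psmb9 was 7.05-fold higher in EGFP (6.07 to 8.22) and Psmb10 3.08-fold (2.94 to 3.23). The class I genes H2-K1 (4.11-fold), H2-D1 (3.78-fold) and B2m (3.26-fold) and the peptide transporter Tap1 (2.39-fold) were higher too. The chemokine Cxcl10 went from 107 to 1046 counts and Cxcl11 from 39 to 787.

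Isg15, a ubiquitin-like modifier, was 11.2-fold higher (8.78 to 14.6), the GTPase genes Gbp3 22.1-fold (16.8 to 29.6) and Igtp 10.4-fold (8.25 to 13.3), and Oasl2 9.78-fold (7.09 to 13.8). Irf1, a transcription factor induced by interferon gamma, had 21.7 and 116.9 CPM in EGFP, 8.41 and 49.2 CPM in WT and 9.75 and 9.72 CPM in L122A. EGFP and WT were alike in ratio, and L122A was flat. Signalling components had smaller ratios than these targets: Stat2 was at -0.27, Ifnar1 at 0.48 and Ifnar2 at -0.14, with Ifngr1 at 0.82 and Ifngr2 at 1.22. Neither Ifng nor Ifnb1 had a count in either EGFP library. The blood marker Ptprc had none either.

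The 250 bases before the start of 4 of these genes are shown for the letters they share, again from RefSeq (GRCm38.p6): Isg15 at chr4:156200819-156201068, minus strand, Gbp3 at chr3:142559794-142560043, plus strand, Cxcl10 at chr5:92348890-92349139, minus strand and Igtp at chr11:58199306-58199555, plus strand. Capitals mark GAAANNGAAA or, on the other strand, TTTCNNTTTC, the repeat of an interferon-stimulated response element; overlapping matches run together.
Isg15: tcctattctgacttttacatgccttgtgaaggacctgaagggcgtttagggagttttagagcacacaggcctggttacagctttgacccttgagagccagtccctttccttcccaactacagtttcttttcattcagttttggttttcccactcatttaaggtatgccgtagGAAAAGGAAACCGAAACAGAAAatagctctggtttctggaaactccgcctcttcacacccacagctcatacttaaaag
Gbp3: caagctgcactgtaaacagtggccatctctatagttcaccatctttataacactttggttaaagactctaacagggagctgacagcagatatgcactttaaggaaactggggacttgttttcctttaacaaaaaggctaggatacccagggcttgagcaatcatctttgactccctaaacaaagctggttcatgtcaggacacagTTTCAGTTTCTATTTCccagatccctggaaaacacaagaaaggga
Cxcl10: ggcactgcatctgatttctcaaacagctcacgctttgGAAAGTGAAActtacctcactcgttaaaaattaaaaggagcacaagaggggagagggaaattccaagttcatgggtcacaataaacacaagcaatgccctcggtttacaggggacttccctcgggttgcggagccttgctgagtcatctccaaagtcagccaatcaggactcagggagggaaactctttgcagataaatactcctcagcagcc
Igtp: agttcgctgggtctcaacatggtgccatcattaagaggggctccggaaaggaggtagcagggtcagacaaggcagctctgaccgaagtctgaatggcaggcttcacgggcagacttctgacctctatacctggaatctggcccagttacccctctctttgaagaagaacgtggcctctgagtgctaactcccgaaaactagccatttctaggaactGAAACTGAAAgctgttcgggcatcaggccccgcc
The sequence shown for Gbp3 is from 1 of its 2 promoter entries. Isg15 holds 3 overlapping matches, Gbp3 holds 2, and Cxcl10 and Igtp hold 1 each. In the same windows of 300 bases these letters were in 3.44% of 32851 RefSeq promoters. Counted by gene, with a match in any of its promoters, they were in 3.49% of 7746 genes kept. They were in 6.64% of genes that were higher and in 3.44% of genes that were lower. Of 34 interferon-inducible genes with a promoter entry 16 held them, including 10 of the 20 that were higher. TTCNNNGAA was in 11 of the same 34. These genes were chosen as interferon-inducible, so shared letters describe the list and not the EGFP cells.

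Hedgehog target genes were lower. Hedgehog ligands relieve the repression of Smo by the receptor Ptch1, and Gli factors then activate Gli1, Ptch1 and Hhip. Of 14 listed genes 9 were kept, 5 lower and 2 higher. Of the 5 lower genes 3 were under 5 CPM without LIF, and of the 2 higher genes 1 was under 5 CPM with LIF. Ptch1 (chr13:63609636-63666828, mm9) had 62.13 CPM with LIF and 5.034 CPM without in EGFP cells, 19.48 and 29.78 CPM in WT and 23.64 and 16.8 CPM in L122A. EGFP cells had the most Ptch1 with LIF and the least without, 12.3-fold lower (10.3 to 14.8). Gli1 went from 437 to 12 counts, 31.9-fold lower (18.1 to 62.3), and had log2 ratios of -1.43 in WT, where both libraries were under 5 CPM, and -1.60 in L122A.

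The Hedgehog-binding inhibitor Hhip was 13.5-fold lower (7.89 to 25.2) and Gli2 3.56-fold (2.97 to 4.28). Smo, the signal transducer, was 2.21-fold higher (2.00 to 2.45), and the co-receptor Cdon 2.07-fold (1.64 to 2.61), though Cdon was under 2-fold with scaling by total counts. Shh had no count in either EGFP library, Ihh had 0 and 1 counts, and Dhh 25 and 14.

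Cell cycle and metabolic genes lay near the middle of all genes. Of 18 kept cell cycle genes Ccne2, a G1/S cyclin, was the only one higher, just at the threshold (29.93 and 59.99 CPM) and under it with scaling by total counts, and Mycn, a Myc family factor, the only one lower (266.1 and 81.3 CPM, 3.27-fold, 3.12 to 3.44). Among 18 glycolysis and hypoxia genes only Pfkp, a phosphofructokinase, was past 2-fold (2.99-fold lower), and the median was 0.14. Among 11 p53 targets only Perp, a desmosome-associated protein, was higher (2.31-fold, 2.21 to 2.41). In the iron list only Slc40a1, the iron exporter ferroportin, was higher (67 and 822 counts, 14.0-fold, 10.9 to 18.2), and it was higher in WT (3.36) and L122A (2.58) as well.

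The largest differences over all genes reached beyond the lists. Fgf1 had 476 counts with LIF and 1 without (417.3-fold lower, with a counting interval of 74.6 to 16519), against 13.6 and 4.98 CPM in WT and 15.8 and 12.7 CPM in L122A. Mymx, a micropeptide known for myoblast fusion, had 59.6 and 1.49 CPM, with 128.7 and 18.5 CPM in WT and 107.1 and 38.0 CPM in L122A. Gna14, a G protein subunit, had 343 and 7 counts and was lower by a like log2 ratio in all 3 transfectants (-5.08, -4.29 and -3.88). Others among the 15 with the lowest ratio were Spink1, a trypsin inhibitor, Ceacam1, an adhesion molecule, and Abca1, a cholesterol transporter, with log2 ratios of -5.56, -5.15 and -4.82. Accsl, Ak7, Myo1f, Krt42, Pou4f2 and Gm11972 complete them with Esrrb, Prdm14 and Gli1.

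The gene with the highest ratio was Rpl27-ps2, a processed pseudogene whose reads may come from its parent, at 33 and 1626 counts. It had 1402 and 1401 counts in the WT and L122A no-LIF libraries and 1426 and 948 in their LIF libraries, so here EGFP LIF was the low library. The next were Fgf8, Iigp1, an interferon-induced GTPase (5 and 199 counts), and Trim67 (8 and 235 counts). Mak, a kinase, had 1.103 and 29.14 CPM, and Ppp4r4, a phosphatase subunit, 3.24 and 80.7 CPM, with at most 1.39 CPM of Ppp4r4 in the 4 WT and L122A libraries. Hist1h2bq belongs to the near-identical histone genes and is uncertain. Pdlim3 (4.21), Rasef (4.13), Zcchc12 (4.01) and Alox15, a lipoxygenase (32 and 478 counts), complete the 15 with Cxcl11, Gbp3, Fgf5 and Psmb8.

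The EGFP response was then set beside the WT and L122A responses, which share no library with it. In WT 556 of 10037 genes were higher (5.54%) and 457 lower (4.55%), 10.1% in all. In L122A 287 of 9913 genes were higher (2.9%) and 306 lower (3.09%), 5.98% in all. Of the 749 genes higher in EGFP, 151 were higher in WT (20.2% of the EGFP genes and 27.2% of the WT genes) and 24 were lower there. In L122A 51 were higher (6.81% and 17.8%) and 23 lower. Of the 637 lower genes, 126 were lower in WT (19.8% and 27.6%) and 71 in L122A (11.1% and 23.2%), with 32 and 33 in the opposite direction. Across the 10064 genes, Pearson's r of the log2 ratios was 0.29 with WT and 0.23 with L122A, and 0.29 between WT and L122A, a description over genes that are not independent and share the scaling.

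Among genes that reached 5 CPM in the higher library of every pair, 57 were lower and 32 higher in all 3 pairs. The 57 were 8.95% of the 637 genes lower in EGFP and 49.6% of the 115 genes lower in both WT and L122A. The 32 were 4.27% of the 749 genes higher in EGFP and 34.8% of the 92 genes higher in both WT and L122A. Besides Socs3, Klf4, Bcl3, Stat3, Icam1, Tfcp2l1, Gbx2, Tbx3, Nr5a2, Tdh, Lama1, Kit and Tfap2c, the lower ones included Inhbb, an activin subunit (-3.49, -3.88 and -1.49 in EGFP, WT and L122A), Jam2, a junction protein (-3.90, -1.96 and -1.04), and Fzd5, a Wnt receptor (-2.76, -2.21 and -2.61). The higher ones included Sema3c, a semaphorin (3.11, 2.47 and 1.55), Car4, a carbonic anhydrase (2.49, 3.57 and 1.87), Wls, needed for Wnt secretion (2.34, 1.23 and 2.25), Cldn7, Pim2 and Vrtn. All 7 LIF and STAT3 targets that were lower in EGFP were lower in the 3 pairs, as were 5 of the 14 naive genes, none of the 9 general pluripotency genes and none of the 4 DNA methylation genes. Klf4 and Tfcp2l1 are in both of the first lists.

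Whether the EGFP response differed from that of the Nanog transfectants was tested for 13996 genes with edgeR's quasi-likelihood test, in which the spread is that between WT and L122A in the same culture. No gene (0%) had a Benjamini-Hochberg adjusted p under 0.05, while 1117 (7.98%) had an unadjusted p under 0.05, and DESeq2 called 120 genes (0.857%), 40 with a higher and 80 with a lower response in EGFP. The smallest edgeR adjusted p, 0.053, belonged to Enox1, an oxidase gene at the cell surface. It had 52.46 CPM with LIF and 2.364 CPM without in EGFP, 49.64 and 43.53 CPM in WT and 48.99 and 44.03 CPM in L122A, a difference of responses of -4.30 (SE 0.43, log2). EGFP no-LIF was the low library and the other 5 were close together. On simulated data for this comparison (13727 genes) the test recovered 0% of 2-fold, 8.96% of 4-fold and 59.1% of 8-fold differences. The simulation gave all genes the same coefficient of variation (0.287) and equal means in WT and L122A. Recovery for genes that differ more between WT and L122A was not tested.

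Among the listed genes, differences of responses for Tet1 (-3.11, SE 0.45), Ptch1 (-3.74, SE 0.54), Klf2 (-3.96, SE 0.67) and Tet2 (-2.77, SE 0.48) had edgeR adjusted p-values of 0.224, 0.224, 0.333 and 0.333. Esrrb (-4.31, SE 2.17) and Sox2 (-2.10, SE 1.09) had adjusted p-values of 0.706 and 0.713 from edgeR. For Socs3 the response was smaller in EGFP (3.52, SE 0.95, edgeR adjusted p 0.415). T and Fgf8 did not reach 1 CPM in 3 libraries and were not in this test. None of these differences passed the threshold, which does not show that the responses were alike.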

How the data were processed

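RNA of the 9 libraries was extracted as total RNA and made into Illumina libraries per the labels' protocols. The aligner was TopHat2 2.0.11 and the build mm9, per the submitters' processing notes. How reads were assigned to genes, with or without strand, is not given in the sources used here. Per gene, the deposited table holds, per the file headers, the authors' raw count of reads and their FPKM, which matched count over length and total count within 1% for 100% of genes above 5 FPKM. Of 33495 identifiers 28692 matched a symbol in a newer annotation, taken for names only; gene coordinates come from the deposited table.

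Counts were scaled by TMM factors (edgeR 4.0.16) over genes that reached 1 CPM in 3 or more libraries, 1.042 for EGFP LIF and 0.974 for EGFP no-LIF. Ratios, exact 95% Poisson intervals for counting error, list counts and figures were made in Python 3.11.15 with scipy 1.17.1, pandas 2.3.3, numpy 2.4.6 and matplotlib 3.10.9. The difference of responses was fitted with edgeR's robust quasi-likelihood test in R 4.3.3 over all 9 libraries, with WT and L122A together as the Nanog libraries, which left 3 residual degrees of freedom and a coefficient of variation of 0.287. Its p-values were adjusted by Benjamini-Hochberg over all 13996 genes, its SE is the absolute log2 difference over the square root of F, and it was tested on simulated data with 200 changed genes. DESeq2 1.42.0, other scalings, minima and prior counts, FPKM and leaving out single libraries were alternatives.

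The members and lists were chosen with earlier results of these data known; 331 of 335 genes of the main lists and all 57 of the interferon-inducible and Hedgehog lists, written after values were seen, matched the table. Named are the 15 genes with the largest and the 15 with the smallest ratio, list members past 2-fold, and per list up to 4 abundant members under it; some list members under 5 CPM and Enox1 were chosen after their values were seen. Values of a few list members are not reported here, though list counts include them. Promoter sequences are from RefSeq, on a newer build than the counts.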

Additional observations from a re-analysis of the deposited data

Results flagged for a closer look

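In both Nanog pairs (WT and L122A) 92 genes were higher and 115 lower, with 10037 genes kept in WT and 9913 in L122A. Of the 637 genes lower in EGFP, 12 (1.88%) were higher in both Nanog pairs. Of the 749 genes higher in EGFP, 4 (0.534%) were lower in both. The list members Dppa3, Vim and Fgfr2 were among these genes, past 2-fold one way in EGFP and the other way in both Nanog pairs. With 1 library per group this difference in direction was not tested on its own. None of the 3 passed edgeR's test of the difference of responses. Dppa3, a maternal factor of germ cells and the naive state, had a log2 ratio of -1.84 in EGFP, 2.83 in WT and 2.16 in L122A (difference -4.57, SE 1.88, edgeR adjusted p 0.628). Vim, an intermediate filament of mesenchymal cells, had 1.21 in EGFP, -1.70 in WT and -1.14 in L122A (difference 2.48, SE 1.30, edgeR adjusted p 0.714). Fgfr2, an FGF receptor, had -1.21 in EGFP, 1.90 in WT and 1.11 in L122A (difference -2.74, SE 0.91, edgeR adjusted p 0.501).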

How the results depend on the processing

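Under each of 7 alternatives no named log2 ratio past 2-fold changed sign. The count of 1386 genes past 2-fold (749 higher, 637 lower) became 2744 (1327 and 1417) with a minimum of 1 CPM, where fewer counts stand behind each gene, and 855 (407 and 448) on log2(FPKM + 1), which compresses low values. It was 1393 with RLE factors, 1420 with total counts (650 and 770), 1538 without ribosomal RNA and mitochondrial genes, 976 with a minimum of 10 CPM and 1396 with a prior count of 0.5. Of 151 named members past 2-fold, 4 lost the call with total counts, 28 with a minimum of 10 CPM, 23 on log2(FPKM + 1) and none with the other settings. The count of 0 genes in the difference of responses stayed 0 with RLE factors and total counts, and became 403 with no filter, 120 with DESeq2, and 76 with only the 6 LIF and no-LIF libraries. Leaving out a library gave 0 to 35 genes: 33 without WT RA, 35 without L122A RA, and 0 without any 1 of the other 4 WT and L122A libraries; the cause was not tested. When a library is left out, the remaining one of its class is assumed to vary like the others. No paired analysis was possible because each combination has 1 library and the labels carry no replicate numbers. With 1 library a side, depth limits little above 10 CPM and the lack of replicate cultures limits every EGFP value.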
